A study of Mus musculus with 14 samples.

Results

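The 4 epithelial genes that were higher in K289R livers, Emp2, Wfdc2, Gldn and Slc35f2, were set against genes that mark the bile ducts, Krt7, Krt19, Epcam, Sox9 and Spp1. The question was whether the 4 risers vary with the ductal markers from liver to liver. Each gene was read from the probe sets whose platform annotation gave that 1 gene symbol, and each had 1 such probe set, except Spp1, which was not analysed here. This left 8 of the 9 genes, among 19237 named genes in all. The 4 risers had been picked because their difference between the genotypes was among the largest increases, so their levels by genotype are a description and carry no test. The ductal markers were taken for their cell type, and that none of them had passed the test between genotypes was known beforehand.

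The 7 K289R livers came from mice in which the nuclear receptor LRH-1, encoded by Nr5a2, carries arginine in place of a lysine that accepts the modifier SUMO. The 7 WT livers came from mice with unaltered LRH-1. Each liver was hybridised to 1 Affymetrix whole-transcript array, and mice of both genotypes were 17 to 19 weeks old, ate ad libitum and were killed at 7 am. The strain, sex, zygosity, litter and hybridisation batch of the mice are not stated in the labels.

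The liver holds a pair of epithelia from a common fetal precursor. Hepatocytes make up most of the tissue and carry the keratins Krt8 and Krt18, and cholangiocytes line the bile ducts and carry Krt7 and Krt19 as well. Epcam encodes a surface adhesion protein of ductal epithelium, Sox9 a transcription factor of ducts that some hepatocytes next to the portal vein also express, and Spp1 the secreted protein osteopontin. Among the risers, Emp2 encodes a membrane protein with multiple membrane spans of the PMP22 family, and Wfdc2 encodes a small secreted protein with whey acidic protein domains that is made by many ductal and glandular epithelia. Slc35f2 encodes a transporter of a solute carrier family. Gldn encodes gliomedin, an olfactomedin domain protein best known from Schwann cells, where it gathers ion channels at nodes of Ranvier, so the word epithelial rests least firmly on this gene. Which cells carried the transcripts was not measured.

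The 250 bases before the start of each riser are shown because the 4 genes were higher in the same livers, and they come from RefSeq on GRCm38.p6 (Emp2 at chr16:10313969-10314218, minus strand; Wfdc2 at chr2:164562465-164562714, plus strand; Gldn at chr9:54286236-54286485, plus strand; Slc35f2 at chr9:53771285-53771534, plus strand). Each runs 5′ to 3′ on the strand of its gene, and capitals mark GC boxes, GGGCGG on either strand.
Emp2: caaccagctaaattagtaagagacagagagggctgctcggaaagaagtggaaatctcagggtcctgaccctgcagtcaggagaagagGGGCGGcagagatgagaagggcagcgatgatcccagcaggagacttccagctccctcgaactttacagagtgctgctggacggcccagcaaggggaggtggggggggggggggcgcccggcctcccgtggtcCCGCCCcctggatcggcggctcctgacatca
Wfdc2: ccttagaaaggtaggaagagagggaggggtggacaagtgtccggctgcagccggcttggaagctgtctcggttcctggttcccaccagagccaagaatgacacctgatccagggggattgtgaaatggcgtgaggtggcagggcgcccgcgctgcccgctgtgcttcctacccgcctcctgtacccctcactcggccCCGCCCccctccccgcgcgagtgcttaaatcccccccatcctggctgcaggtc
Gldn: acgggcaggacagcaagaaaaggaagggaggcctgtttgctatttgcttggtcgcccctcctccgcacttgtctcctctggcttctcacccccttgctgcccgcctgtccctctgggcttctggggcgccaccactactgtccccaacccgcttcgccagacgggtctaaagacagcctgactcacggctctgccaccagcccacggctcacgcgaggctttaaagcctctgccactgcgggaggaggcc
Slc35f2: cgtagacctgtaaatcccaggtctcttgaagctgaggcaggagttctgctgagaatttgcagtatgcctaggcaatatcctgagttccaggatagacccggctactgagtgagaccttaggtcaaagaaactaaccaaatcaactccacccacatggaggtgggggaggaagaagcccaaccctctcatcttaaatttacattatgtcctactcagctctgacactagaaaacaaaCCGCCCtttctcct
Both strands were searched for 6 motifs, and 6 of the 8 measured genes (the risers, Krt7 and Epcam) had an entry in the table. The LRH-1 core motif (AAGGTCA or AAGGCCA), held by 9.09% of the 32851 windows in the table, was in none of the 6 genes' windows. The same held for the SOX core (ACAATGG or ACAAAGG, 7.92% of windows), the TEAD core (GGAATG, 12.6%), the HNF1 core motif (GTTAAT, 6.43%) and the TATA box letters (TATAAA, 12.4%). GC boxes, held by 32.7% of windows, occurred 2 times before Emp2, once each before Wfdc2, Slc35f2 and Epcam, 4 times before Krt7 and not before Gldn. No motif overlapped another in these windows. The windows of Emp2, Wfdc2 and Gldn held 62.8%, 64.8% and 63.6% G and C and that of Slc35f2 held 47.6%, where the median window held 52.4%. These matches are of letters in a short window and say nothing of binding.

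The deposited values were intensities on a linear scale and are given as log2(intensity + 1), which understates the change of dim genes. The interquartile range of an array over all genes was 2.28 to 2.70 in K289R livers and 2.36 to 2.83 in WT livers. K289R replicates 6 and 7 had the narrowest ranges (2.28 each), apart from the other K289R arrays and near WT replicate 6 (2.36), so results that rest on them are also given without them. Replicates 5 to 7 were set apart from replicates 1 to 4 within each genotype after an earlier look at these data. The labels do not name this division. Whether the sets differ over all genes was not tested here, and neither was a cause. The 1044 olfactory receptor genes stand for genes that liver does not express, and the 95th percentile of their values was 5.00 to 5.34 on the K289R arrays and 4.99 to 5.27 on the WT arrays. All 10 measured hepatocyte markers lay above that level on every array. Of 19237 genes, 8.37% were higher and 10.8% lower in K289R livers at an adjusted p of 0.05 (limma, Benjamini-Hochberg over all genes), and 7.54% had arrays that did not overlap between the genotypes. With quantile normalization 2406 genes were higher and 2028 lower, beside 1610 higher and 2068 lower without it.

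Emp2 had the tightest values of the 4 risers. It lay at 6.99, 7.20 and 7.48 (lowest, median and highest of 7 arrays, log2) in K289R livers, against 6.00, 6.20 and 6.28 in WT livers. The lowest K289R array was above the highest WT array. The means were 7.26 ± 0.20 in K289R and 6.18 ± 0.09 in WT livers (log2, SD, n = 7 each), a difference of 1.07 ± 0.08 (log2, SE) or 2.10-fold. The difference was 1.08 among replicates 1 to 4, 1.06 among replicates 5 to 7, and 0.99 without K289R replicates 6 and 7.

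Wfdc2 lay at 6.34, 6.52 and 7.31 in K289R livers, against 5.10, 5.60 and 5.92 in WT livers. The groups did not overlap, and K289R replicate 4 was the highest array. Within WT livers, replicates 5 to 7 (5.78 to 5.92) were all above replicates 1 to 4 (5.10 to 5.60). The means were 6.65 ± 0.35 in K289R and 5.58 ± 0.30 in WT livers (log2, SD, n = 7 each), a difference of 1.07 ± 0.15 (log2, SE). It came to 1.38 among replicates 1 to 4 and to 0.66 among replicates 5 to 7, and the interaction of genotype and set had an adjusted p of 0.47 (limma).

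Gldn lay at 5.40, 5.81 and 6.83 in K289R livers, against 4.60, 4.78 and 5.19 in WT livers. All 7 K289R arrays were above the 95th percentile of the olfactory receptor genes on their own array and none of the 7 WT arrays was, so the WT level is not distinguished from that of genes that liver does not express. K289R replicates 6 and 7, at the narrow end of array spread, were the highest. The means were 6.02 ± 0.50 in K289R and 4.83 ± 0.19 in WT livers (log2, SD, n = 7 each), a difference of 1.19 ± 0.17 (log2, SE), and of 0.92 without replicates 6 and 7. Among replicates 1 to 4 the difference was 0.95 and among replicates 5 to 7 it was 1.51.

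Slc35f2 lay at 5.51, 5.89 and 6.34 in K289R livers, against 4.09, 4.54 and 4.86 in WT livers. As for Gldn, the K289R arrays were all above the 95th percentile of the olfactory receptor genes and the WT arrays were all below it. The means were 5.85 ± 0.29 in K289R and 4.52 ± 0.24 in WT livers (log2, SD, n = 7 each), a difference of 1.33 ± 0.12 (log2, SE) against a WT level not distinguished from that of genes that liver does not express. It came to 1.36 among replicates 1 to 4 and to 1.30 among replicates 5 to 7. Of all genes, 2.82% had every K289R array above every WT array, and the 4 risers were chosen from that contrast.

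**Figure D1:**
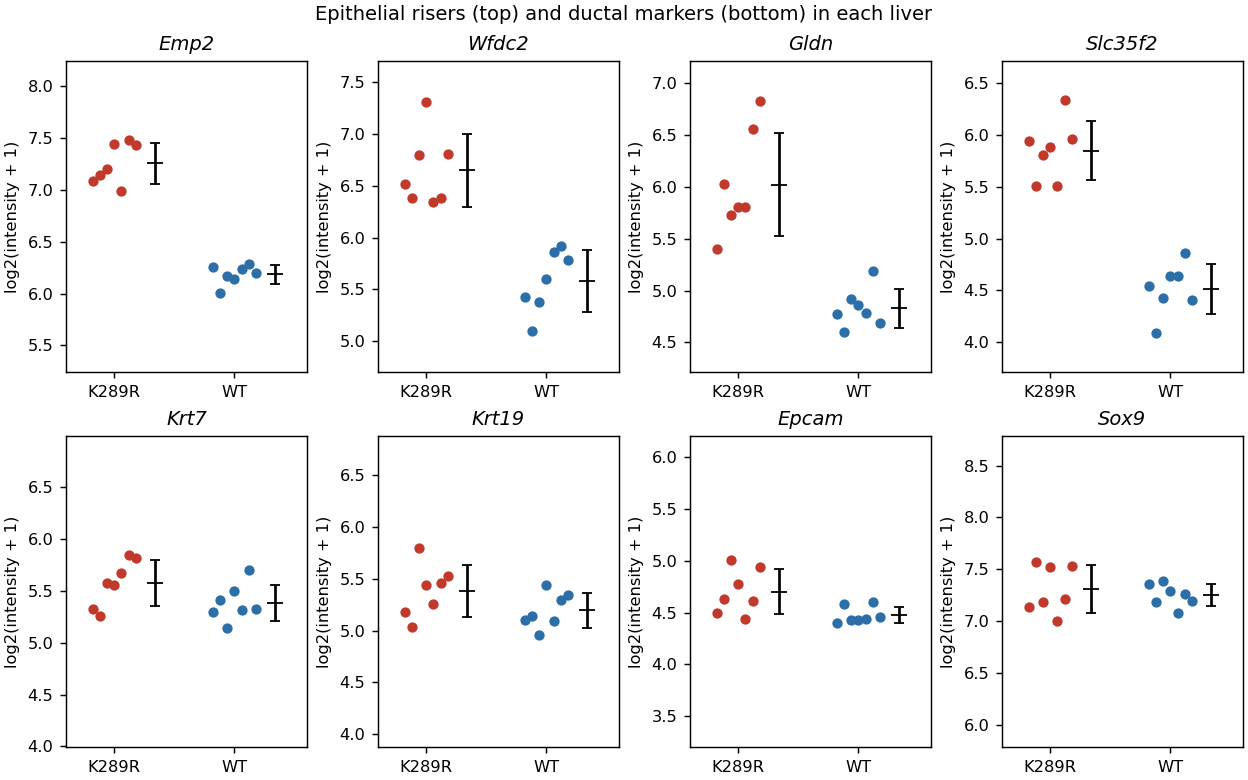
Values of the 4 risers (top) and 4 ductal markers (bottom) as log2(intensity + 1), 1 point per liver in order of replicate number, with mean and SD of 7 arrays beside them. Each panel spans 3 log2 units. The K289R and WT arrays are apart for each riser and overlap for each ductal marker.

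The ductal markers overlapped between the genotypes. Sox9, the transcription factor, lay at 7.00, 7.21 and 7.57 in K289R livers, against 7.08, 7.26 and 7.39 in WT livers, and it was above the olfactory receptor level on all 14 arrays. The SD was larger in K289R than in WT livers for every measured riser and marker. For Sox9 it was 0.23 in K289R and 0.11 in WT livers, and both the lowest and the highest of the 14 arrays were K289R. The difference was 0.06 (log2, 95% interval -0.13 to 0.25, adjusted p = 0.698, limma over all genes).

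Krt7, the keratin of simple ducts, lay at 5.26, 5.57 and 5.84 in K289R livers, against 5.15, 5.32 and 5.70 in WT livers. The difference was 0.19 (log2, 95% interval -0.02 to 0.41, adjusted p = 0.207, limma), and 0.09 without K289R replicates 6 and 7. Krt7 was above the 95th percentile of the olfactory receptor genes on all 14 arrays, but by little on some. WT replicate 3 read 5.15 against a percentile of 5.01, and K289R replicate 2 read 5.26 against 5.05. Krt19 lay at 5.04, 5.44 and 5.80 in K289R livers, against 4.96, 5.14 and 5.44 in WT livers, with a difference of 0.19 (log2, 95% interval -0.03 to 0.41, adjusted p = 0.235, limma). It was above the 95th percentile of the olfactory receptor genes on 6 of 7 K289R arrays and 5 of 7 WT arrays.

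Epcam, the adhesion protein of ductal epithelium, lay at 4.44, 4.63 and 5.01 in K289R livers, against 4.40, 4.44 and 4.60 in WT livers. None of the 14 arrays put it above the 95th percentile of the olfactory receptor genes, so its probe set reads near the level of genes that liver does not express. Its difference was 0.22 (log2, 95% interval 0.04 to 0.41 before adjustment, adjusted p = 0.0869, limma). Without K289R replicate 5, which had the lowest K289R value, the difference was 0.27 and the adjusted p was 0.0398. Thus 0 of the 4 ductal markers passed with limma over all genes, where 19.1% of all genes did, and 1 had an unadjusted p under 0.05. Their median difference was 0.19, beside 0.05 for all genes. In bulk liver, fewer or more duct cells and less or more RNA per duct cell cannot be told apart.

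Of a further 14 measured cholangiocyte markers 0 rose and 1 fell, beside 8.37% of all genes higher and 10.8% lower. With quantile normalization 2 rose and 1 fell, and with sets of replicates as a covariate 1 rose and 2 fell. Krt8, the keratin that hepatocytes and duct cells share, lay at 9.50, 9.71 and 9.78 in K289R livers, against 10.51, 10.56 and 10.65 in WT livers. No array of one genotype overlapped the other. The difference was -0.92 ± 0.05 (log2, SE, adjusted p = 4.24e-10, limma), and the call held in all 24 other settings that were run, with differences of -0.96 to -0.86. Its partner Krt18, which pairs with Krt8 in filaments of simple epithelia, had a difference of -0.09 ± 0.05 (adjusted p = 0.264). Keratin genes have near-identical copies elsewhere in the genome, and whether the Krt8 probes read such copies was not examined. The claudin gene Cldn4 (0.18 ± 0.09, adjusted p = 0.185), the chloride channel gene Cftr (0.09 ± 0.08, adjusted p = 0.478) and the duct fibrocystin gene Pkhd1 (-0.04 ± 0.10, adjusted p = 0.829) did not pass. Cftr had means of 3.36 in K289R and 3.27 in WT livers, where the median of the olfactory receptor genes was 3.34 to 3.52 over all arrays. Of the 14 markers, 5 had means below the 95th percentile of the olfactory receptor genes, so those 5 say little about ducts. The transporter gene Slc4a2, which exchanges chloride for bicarbonate, differed by 0.17 ± 0.06 (adjusted p = 0.0596). Its arrays did not overlap between the genotypes. It passed with quantile normalization (0.22, adjusted p = 0.00707), with sets of replicates as a covariate (adjusted p = 0.0446) and without K289R replicates 6 and 7 (0.20, adjusted p = 0.0367). The same held with the filter on dim genes (adjusted p = 0.0356) and with array range as a covariate (0.19, adjusted p = 0.014). Aqp1 differed by 0.15 ± 0.07 (adjusted p = 0.15), and it passed as a rise with quantile normalization (0.22, adjusted p = 0.0244). Onecut2, a transcription factor of the developing liver and bile ducts, leaned the other way by -0.27 ± 0.09 (adjusted p = 0.0506). It passed as a fall with the replicate block (adjusted p = 0.0229), with sets of replicates as a covariate (adjusted p = 0.0224), with the filter on dim genes (adjusted p = 0.0399), and without K289R replicate 2, K289R replicate 3 or WT replicate 7 (adjusted p = 0.0124, 0.03 and 0.0478). Cd24a, a surface protein gene, differed by -0.35 ± 0.19 (adjusted p = 0.23) and by -0.52 without K289R replicate 3 (adjusted p = 0.0101). It is among the 5 dim markers, with means of 4.88 in K289R and 5.22 in WT livers. The summed intensity of the 14 markers ran from 2972 to 3445 in K289R livers and from 3808 to 3968 in WT livers. Without Krt8 and Krt18, left out after their values were seen, it ran from 1459 to 1885 in K289R and from 1525 to 1645 in WT livers. For the 4 ductal markers the sum was 235 to 315 in K289R and 227 to 265 in WT livers.

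Whether the risers vary with the ductal markers was asked within genotype, where the choice of the risers has no part. For each marker a limma fit over all genes held genotype and the level of the marker, and the slope of each riser was read in log2 units per log2 unit of the marker. Of the 16 slopes, 1 passed an adjusted p of 0.05, that of Gldn on Krt7. It was 1.19 (95% interval 0.44 to 1.94, adjusted p = 0.0173). With the same fit, however, 36.5% of all genes had a Krt7 slope that passed (4130 positive and 2891 negative), so 1 of 4 risers is no more than the background share. Slc35f2 on Krt7 had a slope of 0.69 (0.08 to 1.29, adjusted p = 0.0672), Emp2 one of 0.34 (-0.08 to 0.75, adjusted p = 0.186) and Wfdc2 one of 0.35 (-0.46 to 1.15, adjusted p = 0.485).

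The call of Gldn on Krt7 depended on few arrays. The slope was 0.36 without K289R replicates 6 and 7 (adjusted p = 0.457), 1.02 without K289R replicate 6 (adjusted p = 0.065), 0.85 without K289R replicate 7 (adjusted p = 0.0629) and 0.96 without K289R replicate 1 (adjusted p = 0.0597). With sets of replicates as a covariate it was 0.92 (adjusted p = 0.168), and with the replicate block 0.59 (adjusted p = 0.684). Rescaling left its size near 1.19 while the adjusted p passed above 0.05, at 1.31 with quantile normalization (adjusted p = 0.057) and 1.09 with median centring (adjusted p = 0.0717). Without K289R replicate 2 the slope was 1.58 (adjusted p = 0.0052). With the interquartile range of the array as a covariate it was -0.18 (adjusted p = 0.997), and then no gene of 19236 had a Krt7 slope that passed. Slc35f2 on Krt7 passed without K289R replicate 1 (0.88, adjusted p = 0.0374), without K289R replicate 5 (0.78, adjusted p = 0.0261) or without WT replicate 2 (0.71, adjusted p = 0.0318). Of all genes, 29.2%, 36.7% and 37.5% had a Krt7 slope that passed in these settings, in that order. Without K289R replicate 2 the share was 39.7%, so passing there was common among genes at large.

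None of the 12 slopes on the other markers passed, and with the same limma fits no gene of 19236 passed for Krt19, Epcam or Sox9 either (0% each). At an unadjusted p of 0.05, 10.6% of genes had a slope on Krt19, 2.23% on Epcam and 5.96% on Sox9. Wfdc2 on Krt19 was the 1 riser slope among these with an unadjusted p under 0.05 (0.71, 95% interval 0.00 to 1.43, adjusted p = 0.466). Wfdc2 on Epcam had a slope of 0.88 (-0.07 to 1.83) and Gldn on Sox9 one of 0.88 (-0.13 to 1.89). Emp2 had slopes of 0.26 on Krt19 (-0.17 to 0.69), 0.38 on Epcam (-0.19 to 0.94) and 0.40 on Sox9 (-0.10 to 0.90). Slc35f2 on Sox9 had a slope of 0.01, with an interval of -0.80 to 0.82. All 16 estimates were positive in this fit, and 13 of the intervals held 0. The median slope over all genes was also positive, at 0.06 on Krt7, 0.02 on Krt19, 0.0002 on Epcam and 0.007 on Sox9. With the replicate number as a block the slopes of Emp2, Slc35f2 and Wfdc2 on Krt7 and those of Emp2 and Gldn on Krt19 were negative. Other settings turned signs too. Slc35f2 on Epcam was at -0.06 with quantile normalization and -0.04 with median centring. Slc35f2 on Sox9 was at -0.14 with median centring and -0.44 without K289R replicate 5.

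**Figure D2:**
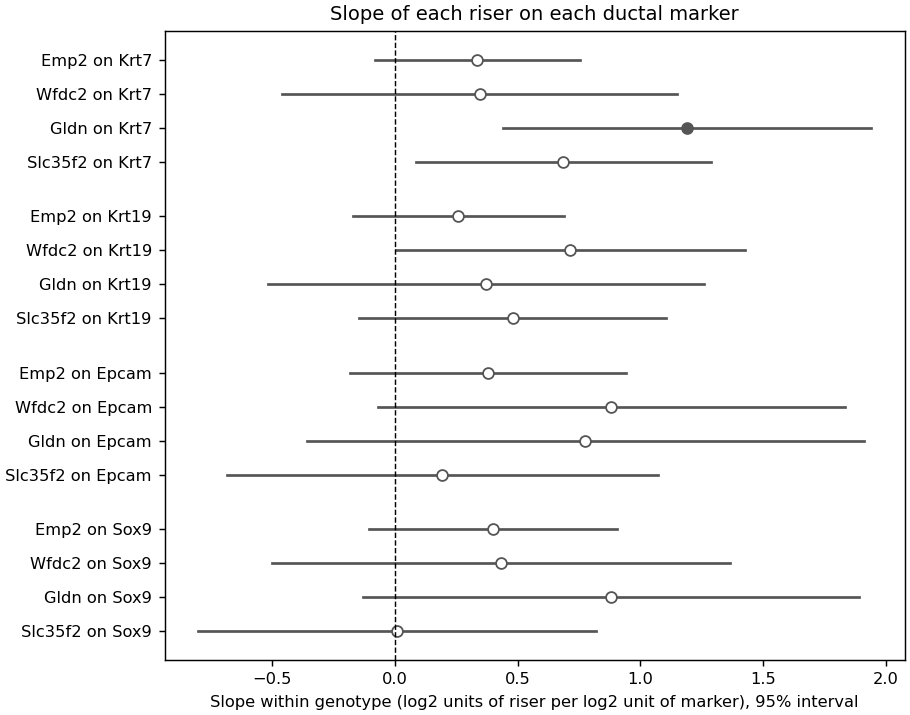
Slope of each riser on each ductal marker within genotype, in log2 units per log2 unit, with the 95% interval over 14 arrays. The filled point, Gldn on Krt7 at 1.19, is the slope with an adjusted p under 0.05 in its fit over all genes.

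With the mean of the 4 measured ductal markers as a covariate, the K289R minus WT difference was 0.95 ± 0.09 for Emp2, 0.86 ± 0.16 for Wfdc2, 0.91 ± 0.17 for Gldn and 1.20 ± 0.14 for Slc35f2 (log2, SE). Without it the differences were 1.07, 1.07, 1.19 and 1.33. These values describe the chosen contrast and were not tested. Of the markers in that mean, Epcam was above the 95th percentile of the olfactory receptor genes on 0 of 14 arrays and Krt19 on 11. Krt7 had an r with the median of those genes of 0.87 in K289R and 0.92 in WT livers. The mean is thus a weak measure of ductal level, and a difference at equal ductal level cannot be read from it.

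Correlations were computed apart in the 7 K289R and the 7 WT livers, since the genotypes form separate clusters in each riser. Of 32 relations of a riser with a marker, which share genes and arrays and so are not independent, 27 had a positive Pearson r. None reached an unadjusted p of 0.05 (exact permutation over all pairings, 2-sided), by r or by rho, and the lowest adjusted p over the 32 was 0.791 for r and 0.904 for rho. The r ran from -0.02 to 0.70 with a median of 0.47 in K289R livers, and from -0.35 to 0.53 with a median of 0.14 in WT livers. The difference between the genotypes in r was not tested.

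The highest r was that of Gldn with Krt7 in K289R livers, 0.70 (exact permutation p = 0.0738, adjusted p = 0.791), with a rho of 0.50 (exact p = 0.267) and an r of 0.87 without the 2 arrays farthest from the median of Krt7. In WT livers this pair had an r of 0.53 (exact p = 0.218, adjusted p = 0.791), a rho of 0.14 (exact p = 0.783) and an r of 0.19 without the 2 farthest arrays. Wfdc2 with Epcam had an r of 0.63 in K289R livers (exact p = 0.132, adjusted p = 0.791), with a rho of 0.71 (exact p = 0.0881) and an r of 0.77 without the 2 farthest arrays. In WT livers it had an r of -0.02 (exact p = 0.971, adjusted p = 0.974), with a rho of 0.39 (exact p = 0.396) and an r of 0.69 without them. Emp2 with Sox9 had an r of 0.54 in K289R livers (exact p = 0.191, adjusted p = 0.791; rho 0.50, exact p = 0.267; 0.77 without the 2 farthest arrays). In WT livers it had an r of 0.10 (exact p = 0.837, adjusted p = 0.974; rho 0.07, exact p = 0.906; 0.58 without them). With 7 arrays a group and r moving by this much on 2 of them, a moderate relation was not detectable. Relations with Epcam are limited further, since it was above the olfactory receptor level on 0 of 14 arrays. Centred within the sets of replicates, the median r was 0.43, beside 0.35 for the 32 relations without that step. It was 0.18 with median centring and 0.21 without WT replicate 6. The sets of 3 and 4 arrays are too small for values of their own.

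**Figure D3:**
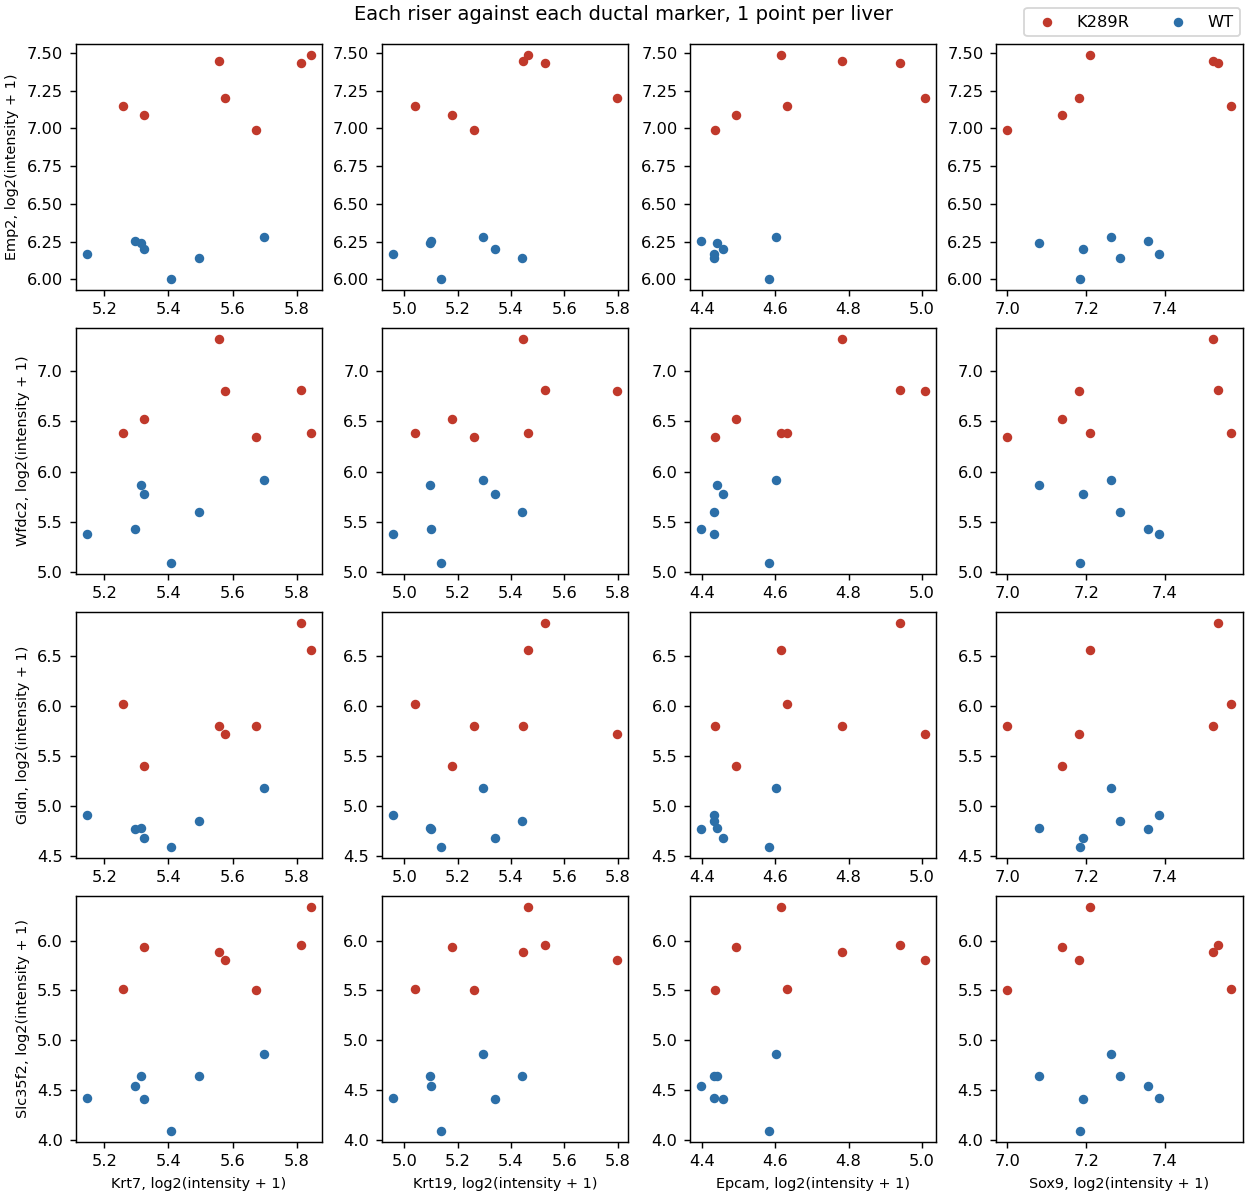
Each riser (rows) against each ductal marker (columns), both as log2(intensity + 1), 1 point per liver. In each panel the K289R points lie above the WT points, while along the marker axis the genotypes overlap.

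Krt7 tended to be higher on arrays of narrow spread, in relations that did not pass after adjustment. Its r with the interquartile range was -0.87 in K289R livers (exact permutation p = 0.019, adjusted p = 0.102 over 16 relations) and -0.89 in WT livers (exact p = 0.00437, adjusted p = 0.0698). The rho was -0.86 in K289R (exact p = 0.0238) and -0.82 in WT livers (exact p = 0.0341), and without the 2 arrays of most extreme range r was -0.66 in K289R and -0.61 in WT livers. Gldn had an r of -0.91 with it in K289R livers (exact p = 0.00933, adjusted p = 0.0746; rho -0.71, exact p = 0.0881), which was -0.44 without the 2 extreme arrays and so rests in part on them. In WT livers that r was -0.58 (exact p = 0.177, adjusted p = 0.472; rho -0.21, exact p = 0.662; -0.63 without the 2 extreme arrays). Krt19 had an r of -0.30 in K289R livers (exact p = 0.508, adjusted p = 0.678; rho -0.57, exact p = 0.2; -0.06 without the 2 extreme arrays). In WT livers its r was -0.82 (exact p = 0.0264, adjusted p = 0.106; rho -0.86, exact p = 0.0238; -0.86 without them). Sox9 had r of -0.02 in K289R (exact p = 0.95, adjusted p = 0.95; rho -0.14, exact p = 0.783; 0.47 without the 2 extreme arrays) and -0.08 in WT livers (exact p = 0.874, adjusted p = 0.932; rho 0.00, exact p = 1; -0.62 without them). The median of the olfactory receptor genes, a measure of background, had an r with Krt7 of 0.87 in K289R and 0.92 in WT livers, given as a description. With that range as a covariate the slope of Gldn on Krt7 was -0.18, as given above.

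**Figure D4:**
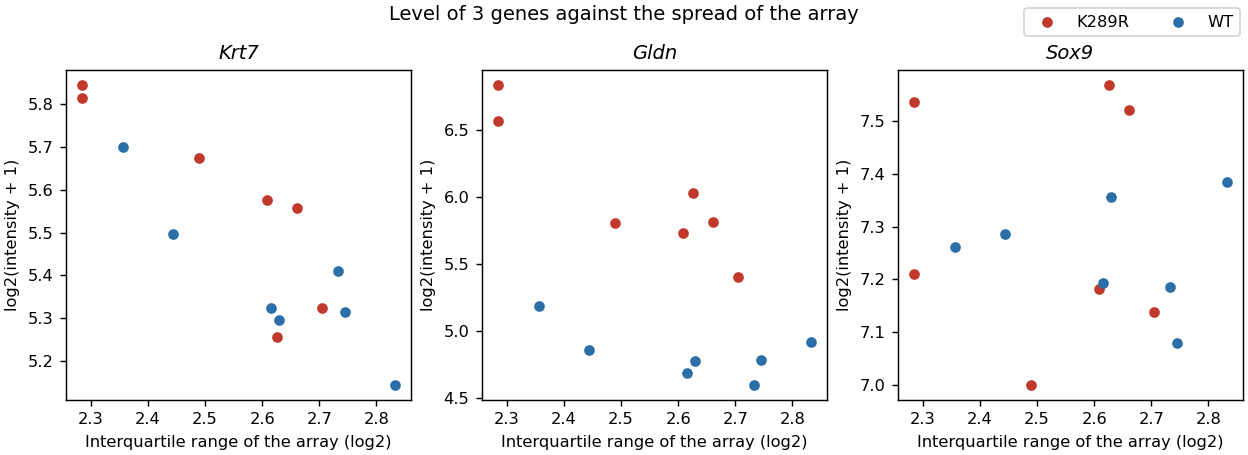
Level of Krt7, Gldn and Sox9, as log2(intensity + 1), against the interquartile range of each array over all genes, 1 point per liver. Krt7 tends to be higher on arrays with a narrow range (r -0.87 in K289R, -0.89 in WT, adjusted p = 0.102 and 0.0698, exact permutation), and the 2 K289R arrays at 2.28 have the highest Gldn values.

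The place of the markers among all genes gives the same values a scale. Over the 14 arrays, centred within genotype, each riser was correlated with 19236 other genes, as a description, since all genes share the arrays and their spread. For Emp2 the other risers ranked 66th (Slc35f2, r 0.75), 218th (Gldn, r 0.67) and 793rd (Wfdc2, r 0.58). The ductal markers ranked 2350th (Sox9, r 0.46), 2773rd (Krt7, r 0.44), 3503rd (Epcam, r 0.40) and 4381st (Krt19, r 0.36). For Wfdc2, Emp2 ranked 187th (r 0.58), Krt19 629th (r 0.47) and Epcam 774th (r 0.44), ahead of Slc35f2 at 879th (r 0.43), while Gldn ranked 7631st (r 0.09). For Gldn the best marker, Krt7, ranked 2784th (r 0.63), and Slc35f2, its neighbour on the chromosome, ranked 5216th (r 0.49). For Slc35f2, Emp2 ranked 120th (r 0.75), Krt7 2310th (r 0.52) and Sox9 10281st (r 0.01). The markers differed among themselves too. For Epcam, which was above the olfactory receptor level on 0 of 14 arrays, Krt19 ranked 60th (r 0.65). Sox9 had r of -0.16 with Krt7 and -0.11 with Krt19.

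The genes most like each riser, among genes with a mean log2 of at least 5, were not ductal markers. For Emp2 they were Pdzk1ip1, which encodes a small membrane protein of epithelia (r 0.88), and Axin2, a target and inhibitor of Wnt signalling (r 0.87). Pdzk1ip1 lay at 7.85, 8.15 and 8.61 in K289R livers, against 6.97, 7.51 and 7.66 in WT livers. It rose by 0.79 ± 0.12 (log2, SE, adjusted p = 7.47e-05, limma), with no overlap of the groups. Axin2 differed by 0.12 (adjusted p = 0.313). For Wfdc2 the nearest genes were Rnf186 (r 0.80) and Gstt3 (r 0.80), for Gldn Agap2 (r 0.97) and Kcnk7 (r 0.92), and for Slc35f2 Wfdc13 (r 0.86) and Cd34 (r 0.86). None of these 6 passed between the genotypes. The nearest genes to the markers were Pla2g1b and Aldoart2 for Krt7 (r 0.95 each), Mmp23 (r 0.82) and Zfp784 (r 0.81) for Krt19, Vmn2r26 (r 0.84) and Gm10237 (r 0.78) for Epcam, and Kcnj8 (r 0.91) and Trib2 (r 0.83) for Sox9. None of the 8 passed between the genotypes.

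Among themselves the risers had r of 0.54 to 0.84 over the 6 pairs in WT livers, with a median of 0.80, and of -0.05 to 0.75 in K289R livers, with a median of 0.48. The lowest adjusted p over the 24 relations within risers and within markers was 0.17 (exact permutation), so none passed. The highest was that of Emp2 with Slc35f2 in WT livers, 0.84 (exact p = 0.0242, adjusted p = 0.17; rho 0.57, exact p = 0.2). Without the 2 arrays farthest from the median of Emp2 it was 0.08. Over all 6 WT pairs r was -0.62 to 0.31 without the 2 farthest arrays, so the WT relations rest on those arrays, and Gldn and Slc35f2 were above the olfactory receptor level on 0 of 7 WT arrays. In K289R livers this pair had an r of 0.75 (exact p = 0.0554, adjusted p = 0.221; rho 0.71, exact p = 0.0881) and 0.61 without the 2 farthest. The ductal markers had r of -0.15 to 0.79 in K289R livers and of -0.27 to 0.69 in WT livers. Their highest was Krt19 with Epcam in K289R livers, 0.79 (exact p = 0.0355, adjusted p = 0.17; rho 0.68, exact p = 0.11; 0.86 without the 2 farthest). In WT livers that r was 0.18 (exact p = 0.677, adjusted p = 0.792; rho 0.39, exact p = 0.396; 0.74 without them). Epcam was above the olfactory receptor level on 0 of 14 arrays, so this pair says little about ducts.

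A pair of the risers are neighbours. Slc35f2 and Gldn lie on chromosome 9, 0.468 Mb apart with 9 genes of the GRCm38.p6 gene table between them, 4 of them protein coding and 3 measured here, while Emp2 lies on chromosome 16 and Wfdc2 on chromosome 2. Of the 3 genes between, Elmod1 differed by -0.03 ± 0.08 (adjusted p = 0.848) and Tnfaip8l3 by -0.02 ± 0.12 (adjusted p = 0.911). Sln, which encodes the calcium pump inhibitor sarcolipin, rose by 0.31 ± 0.09 (adjusted p = 0.0191), at 4.25 to 4.70 in K289R and 3.83 to 4.39 in WT livers, below the 95th percentile of the olfactory receptor genes. That call was lost without K289R replicates 6 and 7 (adjusted p = 0.0861). Of the 23 other measured genes within 10 places of either gene, 2 rose and 4 fell (limma, adjusted p under 0.05, beside 8.37% and 10.8% of all genes), and their median difference was 0.02. Acat1, which encodes a mitochondrial thiolase of ketone body metabolism, fell by 0.91 ± 0.09 (adjusted p = 6.54e-07), at 9.38 to 10.13 in K289R and 10.60 to 10.91 in WT livers. Wdr61 (-0.34 ± 0.06, adjusted p = 0.000186) and Dmxl2 (-0.31 ± 0.08, adjusted p = 0.0094) also fell. The risers' neighbours on other chromosomes did not share their size of change. Of 20 genes around Emp2, 2 rose and 4 fell, with Nubp1 at -0.40 ± 0.07, Abat at 0.30 ± 0.06, 1810013L24Rik at -0.29 ± 0.06 and Pmm2 at -0.28 ± 0.07. Of 20 around Wfdc2, many of them other whey acidic protein genes of the same cluster, 0 passed with limma and 3 had an unadjusted p under 0.05. At least 19.1% of all genes met that unadjusted threshold.

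**Figure D5:**
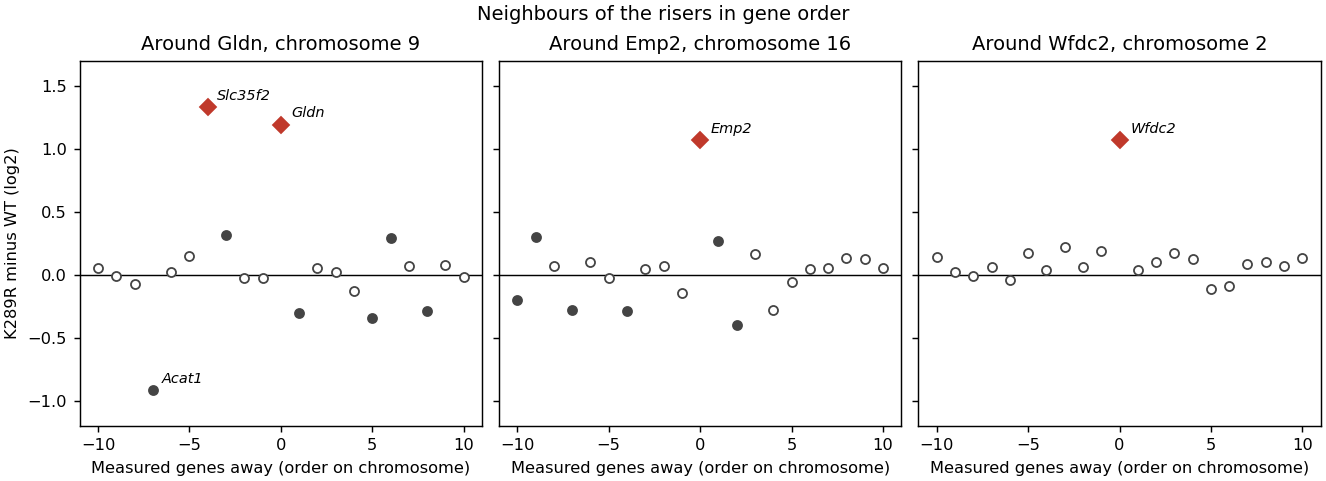
K289R minus WT difference (log2) of the 10 nearest measured genes on each side of Gldn, Emp2 and Wfdc2, by place in the order of genes on the chromosome. Red diamonds are risers, filled circles are other genes with an adjusted p under 0.05 and open circles are the rest. Slc35f2 lies 4 measured genes from Gldn, and Acat1, 7 away, fell by 0.91.

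Relatives of the risers moved in both directions or did not pass. In the PMP22 family Emp1 differed by -0.02 ± 0.09, Emp3 by 0.03 ± 0.11 and Pmp22, the peripheral myelin protein gene, by -0.21 ± 0.10 (adjusted p = 0.148). Pmp22 passed without K289R replicates 6 and 7 (-0.32, adjusted p = 0.011) and with the array range as a covariate. Of the Slc35f genes, Slc35f5 rose by 0.40 ± 0.07 (adjusted p = 0.000156), at 8.87 to 9.25 in K289R and 8.55 to 8.80 in WT livers, with no overlap. Slc35f6 differed by 0.19 ± 0.07 (adjusted p = 0.0639), and it passed with quantile normalization. Slc35f1 (0.13 ± 0.09), Slc35f3 (0.21 ± 0.10) and Slc35f4 (0.17 ± 0.08) did not pass, so 1 of 5 rose and 0 fell, beside 8.37% higher and 10.8% lower among all genes. The means of 3 of the 5 lay below the 95th percentile of the olfactory receptor genes. With quantile normalization, or with sets of replicates or array range as a covariate, 2 of the 5 rose. Of 8 measured genes of the whey acidic protein list 0 passed with limma (median difference 0.05) and 2 had an unadjusted p under 0.05, Wfikkn1 at 0.18 ± 0.08 (adjusted p = 0.111) and Wfdc18 at -0.15 ± 0.07 (adjusted p = 0.165). At least 19.1% of all genes met that unadjusted threshold. The means of 4 of the 8 lay below the 95th percentile of the olfactory receptor genes. Outside that list, and named after their values were seen, Wfdc17 (-0.51, adjusted p = 0.00646) and Wfdc21 (-0.46, adjusted p = 0.00343) fell. Among 10 olfactomedin domain genes and gliomedin partners 0 rose and 2 fell, beside the same shares of all genes. Olfm3 fell by 1.10 ± 0.16 (adjusted p = 5.53e-05), at 4.79 to 6.04 in K289R and 6.32 to 6.95 in WT livers, and Olfml1 fell by 0.83 ± 0.12 (adjusted p = 3.75e-05).

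Other epithelial lists were divided. Of 15 measured junction genes 3 rose and 3 fell, beside 8.37% higher and 10.8% lower among all genes, with a median difference of 0.07. F11r, a tight junction adhesion molecule (0.38 ± 0.07, adjusted p = 0.000833), and Jup, which encodes plakoglobin (0.33 ± 0.08, adjusted p = 0.0068), rose. Ocln, which encodes occludin (-0.38 ± 0.09, adjusted p = 0.00579), and Cldn1 (-0.31 ± 0.08, adjusted p = 0.00627) fell. With quantile normalization 5 rose and 2 fell, and 4 rose and 2 fell without K289R replicates 6 and 7. Of 14 Notch and YAP pathway genes, which guide bile duct formation, 1 rose and 0 fell, beside 8.37% higher and 10.8% lower among all genes. It was Notch2 (0.35 ± 0.09, adjusted p = 0.00721), at 8.11, 8.56 and 8.72 in K289R livers, against 7.91, 8.14 and 8.26 in WT livers. None fell, and 3 rose with quantile normalization. Nr5a2 itself differed by -0.002 ± 0.08 (adjusted p = 0.989).

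Markers of other cells that a piece of liver could hold were counted beside the risers. No mesothelial marker (10 measured), exocrine pancreas marker (10), hepatocyte marker (10) or smooth muscle and Schwann cell marker (6) passed with limma over all genes. Among all genes 8.37% were higher and 10.8% lower. Means of 3 mesothelial, 6 pancreas and 2 smooth muscle and Schwann cell markers lay below the 95th percentile of the olfactory receptor genes. For these dim markers, not passing says little about the cells. At an unadjusted p of 0.05 the counts were 2, 1, 2 and 1, a threshold that at least 19.1% of all genes met. These held Msln, the mesothelin gene (0.28 ± 0.10, adjusted p = 0.0712), and Cela3b, a pancreatic elastase gene (0.26 ± 0.12, adjusted p = 0.144). The hepatocyte genes with the smallest p were Ttr (-0.10 ± 0.04, adjusted p = 0.0792, which passed with quantile normalization) and Tat (-0.11 ± 0.05, adjusted p = 0.123). The Schwann cell marker S100b differed by 0.21 ± 0.09 (adjusted p = 0.0974). Summed mesothelial intensity was 348 to 456 in K289R and 299 to 437 in WT livers, summed pancreatic intensity 277 to 373 in K289R and 285 to 347 in WT livers, and summed smooth muscle and Schwann cell intensity 203 to 273 in K289R and 190 to 268 in WT livers. For the next 3 lists the shares over all genes are again 8.37% higher and 10.8% lower, which is about 1 of 10 each way. Of 10 stellate cell markers 2 rose, Des (0.39 ± 0.10, adjusted p = 0.011) and Reln (0.22 ± 0.08, adjusted p = 0.0474, a call lost in 12 of 24 other settings). Of 10 endothelial markers 2 rose, Eng (0.37 ± 0.07) and Oit3 (0.36 ± 0.08), and Fcgr2b fell by 0.33 ± 0.08. Of 10 Kupffer cell markers 3 fell and 1 rose, with Vsig4 at -0.75 ± 0.12 and C1qc at -0.52 ± 0.11. Adgre1 (-0.42 ± 0.13, adjusted p = 0.0324) and C1qa (0.30 ± 0.10, adjusted p = 0.0493) lost their calls in 10 and 15 of 24 other settings. The part of these cells in the rise of the 4 genes was not tested.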

How the data were processed

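Liver RNA of 7 K289R and 7 WT mice was measured on 1 array each. The authors deposited linear probe set intensities. The submitters' processing notes name Affymetrix Expression Console. Its version, background correction, summarisation and scaling between arrays are not given in the sources used here. Medians of the arrays lay between 39.2 and 43.3. Arrays have no read depth, and their number limits the precision. Of 35556 probe sets, 21456 had 1 gene symbol, 2376 had several and were left out, and 11724 were unnamed. Each of 19237 genes was read from its probe set with the highest mean.

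Values were analysed as log2(intensity + 1), a pseudocount of 1, with no filter on dim genes. Differences are K289R minus WT from limma 3.58.1 in R 4.3.3 (lmFit, eBayes with trend), 2-sided, with Benjamini-Hochberg adjusted p-values over all genes and 0.05 as the threshold. Slopes came from limma fits with genotype and 1 marker. Since Spp1 was not analysed, 4 markers gave 16 slopes and 32 correlations. Correlations within genotype were tested by exact permutation. The fits and the permutation test were tested on simulated data.

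Genes were named by rule: the members, the 2 genes most like each member, all PMP22 and Slc35f relatives, up to 4 passing genes (or else the 2 with the smallest p) of each list, up to 4 passing neighbours of each riser, and Nr5a2. Krt18, Cldn4, Cftr, Pkhd1, Slc4a2, Aqp1, Onecut2, Cd24a, Elmod1, Tnfaip8l3, Wfdc17 and Wfdc21 were named after their values were seen. The members, the lists and this rule were chosen with earlier results of these data known. Replicates are separate biological replicates per the labels. Alternatives were other normalizations, pseudocounts of 0 and 16, a filter at a mean log2 of 5, means of probe sets, the replicate number as a block, sets of replicates or array range as a covariate, and leaving out arrays.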

Additional observations from a re-analysis of the deposited data

Results flagged for a closer look

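In none of the 16 sets of 7 arrays (8 genes in K289R and in WT livers) did 1 array lie farther from the rest than Dixon's 95% critical value for 7 values allows.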

How the results depend on the processing

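The differences of the risers kept their direction in all 25 other settings, at 0.94 to 1.12 for Emp2, 0.86 to 1.13 for Wfdc2, 0.89 to 1.30 for Gldn and 0.94 to 1.39 for Slc35f2. The lowest for Emp2, Gldn and Slc35f2 came with a pseudocount of 16, which shrinks dim genes. The count of ductal markers that passed was 0 to 1 when 1 array was left out in turn, and 0 in the other settings. The count of the 16 riser slopes that passed was 1 as reported and with no pseudocount, a pseudocount of 16, the filter on dim genes or means of probe sets. It was 0 with quantile normalization, median centring, the replicate block, sets of replicates as a covariate, array range as a covariate, or without K289R replicates 6 and 7, and 0 to 2 when 1 array was left out. The slope of Gldn on Krt7 turned to -0.18 with array range as a covariate, a setting in which no Krt7 slope of any gene passed. Of the 32 correlations 0 passed after adjustment in any setting, and the number with an unadjusted p under 0.05 was 2 when centred within the sets of replicates and 0 to 3 when 1 array was left out (3 without WT replicate 2). The count of genes that passed between genotypes ran from 3007 (median centring) to 4519 (array range as a covariate), and with quantile normalization it was 4434. With the replicate block it was 3838, and the ductal markers that passed stayed at 0. Arrays of the same number had correlations of -0.30 to 0.56 in their deviations from the group means, and 2 of 7 K289R arrays were most like the WT array of their own number. The labels name no pairing, and with 7 arrays a group these values cannot settle whether the numbers pair the arrays. Krt7, Krt19 and Epcam read near the level of unexpressed genes, which limits what their slopes and correlations can show. Of these, Krt7 was above the 95th percentile of the olfactory receptor genes on all 14 arrays, though by little on some. Spp1 was not analysed here.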
